A study of Mus musculus with 24 samples.

Results

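Transcript levels in the mouse suprachiasmatic nucleus (SCN) at subjective midday were compared with those in the middle to late subjective night. The midday group held the 6 arrays at CT 28, 30, 32, 52, 54 and 56, which are circadian times 4, 6 and 8 of 2 successive cycles, and the night group held the 4 arrays at CT 18, 20, 42 and 44, which are circadian times 18 and 20. These 10 of the 24 arrays of the series were chosen by their time labels and by the value range of the array. The arrays at CT 40 and CT 64 were left out because their values spread over a narrow range, with interquartile ranges of 2.48 and 2.65 on the log2 scale against 2.72 to 2.90 at midday and 2.77 to 2.90 at night. All arrays came from C57/BL6 mice that had spent 3 weeks in a cycle of 12 h light and 12 h dark and were then moved to constant darkness, so no group saw light at collection. Collection began at CT 18 and went on every 2 h, and each time is represented by 1 array of SCN RNA combined in equal amounts from 3 mice. No time therefore had a replicate: each group joined neighbouring times of both cycles, its spread included the change from one time to the next, and the p-values measure the spread between these arrays only.

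The SCN is the hypothalamic nucleus that sets daily timing in mammals. In its neurons CLOCK and BMAL1 drive the Period, Cryptochrome and REV-ERB genes, whose products feed back on that drive, and the same neurons fire fastest in the subjective day and are nearly silent at night. The electrical rhythm brings calcium and cyclic AMP signals with it, and secreted peptides such as prokineticin 2 and vasopressin carry the time of day to other regions.

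The deposited values were log2 intensities of one-colour arrays, read here for 19938 genes with 1 probe set each. All 10 transcripts on a list of SCN neuron markers lay above the 30th percentile of gene means (log2 5.52). The mean of that list ran from 8.56 to 9.005 at midday and from 8.36 to 8.83 at night. The list holds Rgs16, Prok2 and Rora, which were themselves higher at midday, so its mean cannot show whether SCN content was equal. Markers of tissue outside the nucleus were uneven between arrays. The mean of 10 anterior pituitary markers was 6.39 and 7.22 on the night arrays at CT 18 and CT 20, against 5.38 to 5.43 on the other night arrays and 5.23 to 5.71 at midday. The midday minus night difference of that mean was -0.62 (exact permutation test over the 10 arrays, two-sided p = 0.110, adjusted p = 0.186 over 2 such measures, smallest p possible 0.00476). For 1192 olfactory and vomeronasal receptor genes, used as a measure of array background, the mean lay between 4.09 and 4.19 at midday and between 4.01 and 4.14 at night (difference 0.05, exact permutation test, two-sided p = 0.186, adjusted p = 0.186).

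At midday 17 genes were higher and 10 were lower than at night (limma, adjusted p under 0.05 over all genes tested), which is 0.0853% and 0.0502% of the genes, or 0.135% together. The median difference over all genes was 0.01 on the log2 scale. The genes higher at midday changed by 1.41- to 2.17-fold and took in the G protein regulator Rgs16, the Ras-like GTPase Rasl11b, the peptide Prok2 and the clock genes Nr1d1, Dbp, Per2 and Rora. Apart from Iltifb, whose midday level was below the array background, the genes lower at midday changed by 1.34- to 1.59-fold (Hspa1a), and they took in the clock repressor Nfil3 and the heat shock genes Hspa1a and Chordc1. For each of the 27 genes the sign was the same in both cycles, whereas 53.9% of all genes kept their sign. The midday and night arrays of the 27 also did not overlap in either cycle. Both facts rest on the arrays of the fit that picked the 27, which makes them a description. Nonoverlap within both cycles was found for 377 genes higher at midday (1.89%) and 362 lower (1.82%), 3.71% together. At an unadjusted p under 0.05 there were 882 genes higher (4.42%) and 832 lower (4.17%), 8.6% together.

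**Figure D1:**
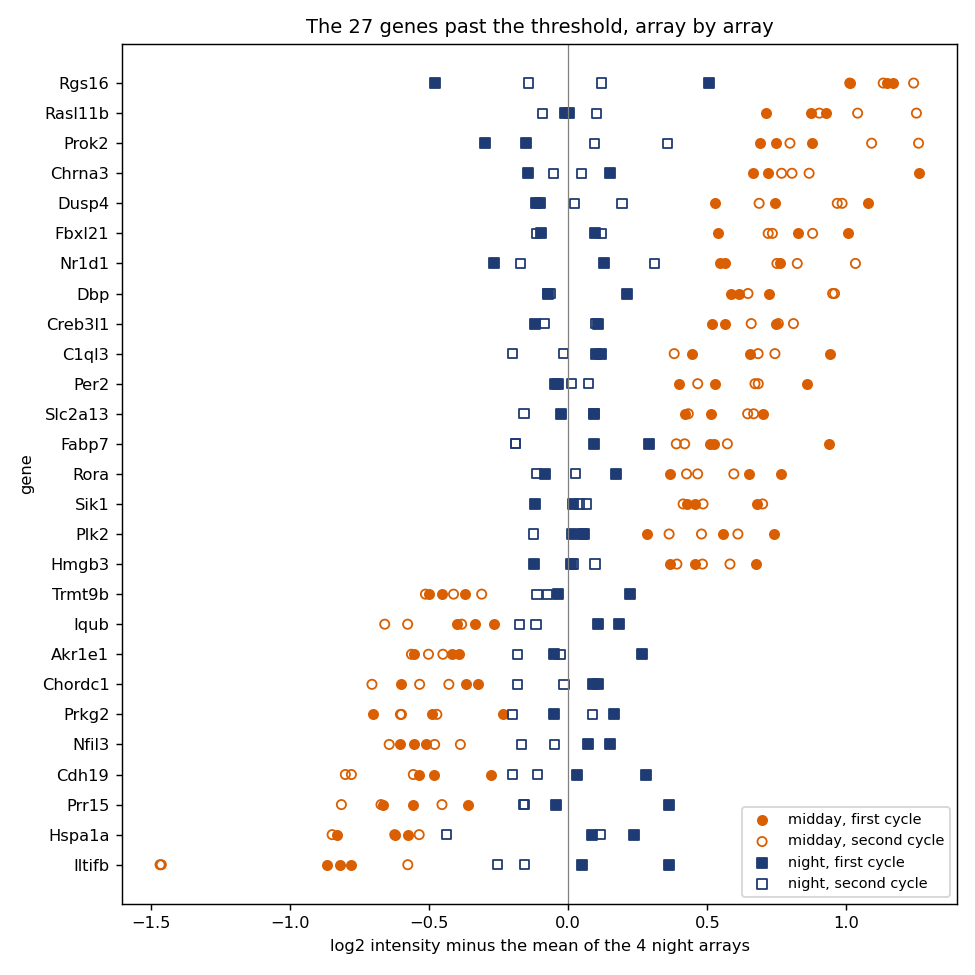
Log2 intensity of each of the 27 genes past the threshold (vertical axis) on each of the 10 arrays, as the difference from the mean of the 4 night arrays (horizontal axis, log2). Circles are midday and squares are night arrays, filled for the first cycle and open for the second, and in every line the circles lie wholly to one side of the squares.

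How many genes passed rested on single arrays. With 1 array left out at a time the count ranged from 8 to 24 for genes higher and from 2 to 27 for genes lower at midday. Without the night array at CT 18 it was 8 and 2, without CT 20 it was 17 and 3, without CT 42 it was 11 and 3, and without CT 44 it was 24 and 27. Leaving out a midday array gave 13 to 17 genes higher, and 5, 5, 6 and 6 genes lower without CT 28, CT 30, CT 32 and CT 56. Of the 27 genes, 9 passed whichever array was left out, namely Rgs16, Rasl11b, Prok2, Chrna3, Dusp4, Fbxl21, Creb3l1 and Dbp among those higher and Cdh19 among those lower. No gene of the 27 changed sign under any setting tried.

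Rgs16, which speeds the return of G protein alpha subunits to rest and is a marker of SCN neurons, showed the highest fold among genes that passed. Its log2 intensity was 8.40, 9.38, 8.73 and 8.996 on the night arrays at CT 18, 20, 42 and 44, against a lowest, median and highest midday value of 9.89, 10.02 and 10.12. The night arrays were spread over about a whole log2 unit (SD 0.42, n = 4), the midday arrays were tight (SD 0.09, n = 6), and the groups stayed apart. The difference was 1.12 ± 0.14 (SE), a 2.17-fold increase (limma, adjusted p = 0.00483), with 1.10 in the first cycle and 1.14 in the second. Rasl11b, a small GTPase of the Ras family, had the smallest adjusted p of all genes. It read 6.50, 6.51, 6.42 and 6.61 at night and 7.22, 7.42 and 7.76 (lowest, median, highest) at midday, so that the night arrays were alike and well below every midday array. The difference was 0.95 ± 0.08 (SE), 1.93-fold (limma, adjusted p = 0.000456). These 2 genes were the members that passed among 19 G protein regulators and Ras-like GTPases measured, a list whose median difference was 0.05. Rasd1, a Ras-like protein induced by glucocorticoids, read lower at midday (difference -0.74 ± 0.14) but missed the threshold (limma, adjusted p = 0.0872).

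Prok2, the peptide prokineticin 2 that carries SCN output, was the single gene to pass among 23 SCN neuropeptides and receptors. It read 6.01, 5.87, 6.52 and 6.26 on the night arrays and 6.85, 7.0 and 7.42 (lowest, median, highest) at midday. The second-cycle night values were above those of the first, and all were below midday. The difference was 0.91 ± 0.09 (SE), 1.88-fold (limma, adjusted p = 0.00153), and the mean fell across the window, from 7.23 at circadian time 4 to 7.08 at 6 and 6.91 at 8. The vasopressin gene Avp read 10.94 ± 0.30 (SD, n = 4) at night and 11.29 ± 0.22 (n = 6) at midday, with overlapping arrays (difference 0.35, limma adjusted p = 0.509). The receptors Vipr2 and Avpr1a, for the peptide VIP and for vasopressin, read lower at midday in both cycles without overlap, at -0.62 ± 0.14 and -0.59 ± 0.14, and neither passed (limma, adjusted p = 0.173 and 0.178). Avp, Vipr2 and Avpr1a are named because of their place in the pathway, after their values were seen.

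Promoter sequence was matched for 20 of the 27 genes in the RefSeq table of build GRCm38.p6, and the 250 bases before each gene start were searched on both strands. The E-box CACGTG, the site of CLOCK and BMAL1, was found in 1 of 13 promoters of genes higher at midday (Prok2) and 0 of 7 of genes lower, against 8.12% of 15562 promoters of all genes tested. The cyclic AMP response element TGACGTCA was found in 1 of 13 (Plk2) and 0 of 7, against 2.34%. These 2 promoters are shown because they carry the only matches, with the motif in capitals. The Prok2 stretch is chr6:99726393-99726642 on the minus strand with the motif starting at base -135, counted back from the base before the gene start as -1. The Plk2 stretch is chr13:110394794-110395043 on the plus strand with the motif starting at base -62.
Prok2: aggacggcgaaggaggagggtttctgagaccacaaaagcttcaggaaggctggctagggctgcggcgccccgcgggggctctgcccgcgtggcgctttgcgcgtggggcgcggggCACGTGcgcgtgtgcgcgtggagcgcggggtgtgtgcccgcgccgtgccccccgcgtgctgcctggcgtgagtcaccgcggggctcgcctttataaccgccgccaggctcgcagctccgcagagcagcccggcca
Plk2: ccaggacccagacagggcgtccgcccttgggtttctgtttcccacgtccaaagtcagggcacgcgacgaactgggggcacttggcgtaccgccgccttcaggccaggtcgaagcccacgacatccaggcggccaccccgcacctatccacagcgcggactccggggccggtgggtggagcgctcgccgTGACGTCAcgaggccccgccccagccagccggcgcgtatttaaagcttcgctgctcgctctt
The D-box letters TTATGTAA or TTACGTAA, bound by the DBP family and by NFIL3, were in 0 of these 20 promoters and in 1.05% of all. The ROR element and the heat shock element, on both strands, were likewise in 0 of 20, against 0.167% and 0.443% of all. With shares this low a count of 0 in 20 says little, and looser forms of these sites were not searched. A match is a run of letters within this window and was not measured as binding.

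Further genes higher at midday encode parts of receptor, MAP kinase and cyclic AMP signalling. Chrna3, the alpha 3 subunit of nicotinic acetylcholine receptors, read 6.12, 6.41, 6.21 and 6.31 at night and 6.93, 7.05 and 7.52 (lowest, median, highest) at midday. The highest midday value, at CT 32, stood apart from the others, and the lowest was still above all night arrays. The difference was 0.85 ± 0.11 (limma, adjusted p = 0.00465), and the remaining 15 of 16 nicotinic and muscarinic receptor genes did not pass at the adjusted or the unadjusted threshold. Of these 16 genes only 10 lay above the 30th percentile of gene means. Dusp4, a nuclear phosphatase that switches off MAP kinases, read 5.58, 5.57, 5.71 and 5.88 at night and 6.21, 6.54 and 6.76 at midday, and its mean climbed from 6.29 at circadian time 4 to 6.71 at 8. Its difference was 0.83 ± 0.10 (limma, adjusted p = 0.0041). It was the single member to pass among 16 MAP kinase phosphatases and Sprouty feedback genes, of which 4 were higher at an unadjusted p under 0.05 and 0 lower, where 4.42% of all genes were higher.

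Sik1, a kinase that holds back the coactivators of CREB, rose by 0.53 ± 0.08 (limma, adjusted p = 0.0107), from 7.28 ± 0.08 (SD, n = 4) at night to 7.80 ± 0.13 (n = 6) at midday. It was the only member of 31 cyclic AMP and CREB pathway genes to pass, and lost its call without CT 18 or CT 42. The phosphodiesterases Pde2a and Pde10a, which break down cyclic nucleotides, differed by 0.39 ± 0.08 and 0.37 ± 0.08 without overlap in either cycle (limma, adjusted p = 0.0919 and 0.101). Creb3l1, a CREB-family transcription factor held in the endoplasmic reticulum membrane, read 6.26, 6.48, 6.47 and 6.29 at night and 6.89, 7.08 and 7.18 at midday. Both groups were narrow, with an SD of 0.12 in each, and the difference was 0.67 ± 0.07 (limma, adjusted p = 0.00266). Plk2, a kinase induced by synaptic activity and the carrier of the TGACGTCA run above, differed by 0.50 ± 0.09 (limma, adjusted p = 0.0374), a call lost in 8 of 10 fits with 1 array left out. Among 24 immediate early genes 0 passed. At an unadjusted p under 0.05, 3 were higher and 3 lower, where 4.42% and 4.17% of all genes were. The orphan nuclear receptor Nr4a3 (0.37 ± 0.08, limma adjusted p = 0.117) and the AP-1 subunit Jun (-0.23 ± 0.07, adjusted p = 0.373) had the smallest p of that list.

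**Figure D2:**
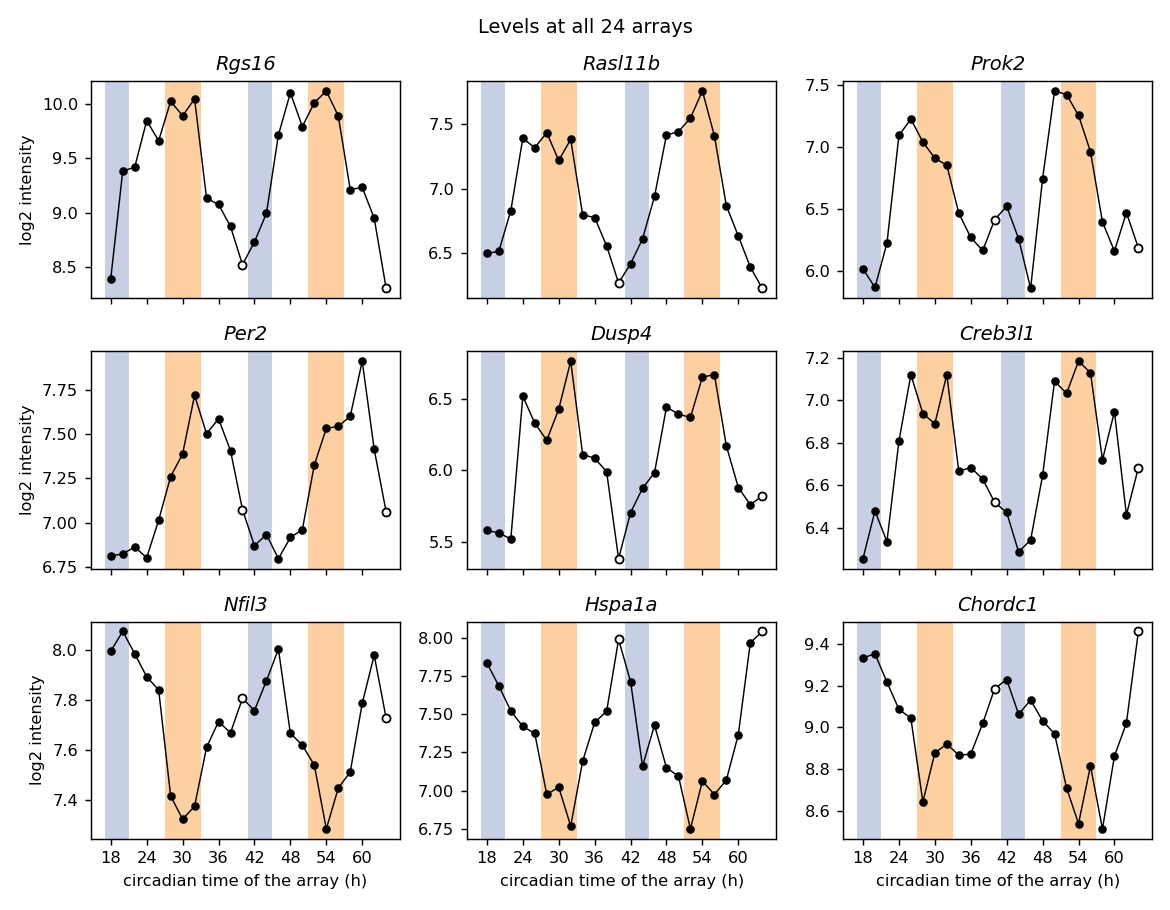
Log2 intensity (vertical axes) of 9 genes on all 24 arrays against circadian time in hours (horizontal axes), with night arrays shaded blue, midday arrays shaded orange, and the arrays at CT 40 and CT 64 as open points. Rgs16 at 10.12 and Rasl11b at 7.76 are highest of all arrays at CT 54, while Per2 is highest at CT 60, after the midday window, and Nfil3 is lowest at CT 54.

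Of the core clock loop 18 genes were measured, and 4 passed as higher and 1 as lower at midday. At an unadjusted p under 0.05 the list held 13 higher and 2 lower, against 4.42% and 4.17% of all genes, and its median difference was 0.32 (0.28 in the first cycle and 0.35 in the second). Nr1d1, the repressor REV-ERB alpha, read 8.76, 9.16, 8.85 and 9.34 at night and 9.57, 9.78 and 10.06 (lowest, median, highest) at midday, a difference of 0.75 ± 0.11 (limma, adjusted p = 0.0104). In each cycle the later night array, at circadian time 20, was the higher one. Dbp, an activator at D-box sites, read 7.26, 7.54, 7.27 and 7.26 at night and 7.92, 8.02 and 8.29 at midday, with CT 20 alone above the other night arrays. Its difference was 0.75 ± 0.09 (limma, adjusted p = 0.00465), with 0.57 in the first cycle and 0.92 in the second. No gene passed the adjusted test of such a gap between cycles.

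Per2, a core repressor of the loop, read 6.81, 6.82, 6.87 and 6.93 at night and 7.26, 7.46 and 7.72 at midday (difference 0.60 ± 0.08, limma, adjusted p = 0.0104). Its mean climbed within the window from 7.29 at circadian time 4 to 7.46 at 6 and 7.63 at 8, and the highest of all 24 arrays was the later one at CT 60. Rora, the nuclear receptor that activates Bmal1, rose by 0.54 ± 0.08 (limma, adjusted p = 0.0169), from 8.33 ± 0.13 (SD, n = 4) to 8.87 ± 0.15 (n = 6). Nfil3, which represses at the D-box sites used by DBP, went the other way. It read 7.996, 8.08, 7.76 and 7.88 at night and 7.28, 7.39 and 7.54 at midday, so that every midday array was below every night array. The difference was -0.53 ± 0.07 (limma, adjusted p = 0.0104), with -0.67 in the first cycle and -0.39 in the second. Without the night array at CT 18 the adjusted p of Per2 and Nr1d1 was 0.0724, and the calls of Rora and Nfil3 also ended.

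The remaining clock genes did not pass with the probe set used for each. Ciart, a repressor of CLOCK and BMAL1, differed by 0.87 ± 0.16 (limma, adjusted p = 0.0516), with 1.27 in the first cycle and 0.48 in the second. Its night arrays read 5.88, 6.25, 6.58 and 6.69 in order of time and all lay below the lowest midday value of 6.90. A second Ciart probe set of nearly equal mean level differed by 0.74 ± 0.07 and passed in the fit with every probe set of single-symbol genes (limma, adjusted p = 0.0014). Per1 differed by 0.57 ± 0.10 (adjusted p = 0.0573), Per3 by 0.36 ± 0.08 (0.173), Cry2 by 0.31 ± 0.07 (0.186), Rorb by 0.35 ± 0.08 (0.173) and Hlf by 0.31 ± 0.06 (0.101), all without overlap in either cycle. Nr1d2 (0.32 ± 0.07, adjusted p = 0.178), Bhlhe41 (0.27 ± 0.09, 0.427), Tef (0.20 ± 0.07, 0.434), Cry1 (0.13 ± 0.08, 0.639) and Bhlhe40 (0.12 ± 0.07, 0.672) overlapped between the groups. Arntl, which encodes BMAL1, read 7.73, 7.91, 7.56 and 7.73 at night and 7.33, 7.45 and 7.51 at midday (difference -0.29 ± 0.07, adjusted p = 0.211), and its partner Clock differed by -0.06 ± 0.06 (adjusted p = 0.806). These p-values are from limma over all genes.

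Fbxl21, the F-box subunit of a ubiquitin ligase that acts on cryptochromes, read 7.15, 7.35, 7.14 and 7.37 at night and 7.79, 8.03 and 8.26 (lowest, median, highest) at midday. The difference was 0.78 ± 0.09 (limma, adjusted p = 0.00302), nearly equal in the first (0.79) and second (0.78) cycle. It was the single gene to pass among 29 kinases, phosphatases and ligases of clock proteins measured, whose median difference was -0.02. C1ql3, a secreted synaptic protein of the C1q family, rose by 0.64 ± 0.10 (limma, adjusted p = 0.0169), and Slc2a13, a transporter of myo-inositol, by 0.56 ± 0.08 (adjusted p = 0.0104). Hmgb3, a chromatin protein with HMG boxes, rose by 0.49 ± 0.07 (adjusted p = 0.0161), and its second probe set gave 0.53. Fabp7, a fatty acid binding protein of astroglia, read 10.49, 10.69, 10.21 and 10.21 at night and 10.79, 10.91 and 11.34 at midday. Its difference was 0.56 ± 0.09 (limma, adjusted p = 0.025), and the call ended in 6 of 10 fits with 1 array left out. Of 12 astrocyte markers Fabp7 alone passed, 10 had a negative difference, and the list mean was 9.32 to 9.52 at midday and 9.37 to 9.55 at night. In tissue RNA, fewer cells of a type and less RNA per cell cannot be told apart.

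Cytosolic heat shock genes read lower at midday as a group. Of 24 measured, 2 passed as lower and 0 as higher, 23 had a negative difference, and the median was -0.19 (-0.23 in the first cycle and -0.17 in the second) against 0.01 over all genes. At an unadjusted p under 0.05 there were 19 lower and 0 higher, where 4.17% of all genes were lower, and 12 members did not overlap in either cycle, where 1.82% of all genes did so. Earlier results of these data had already placed several of these genes at night, so the count is a description. Hspa1a, the inducible HSP70 chaperone, read 7.84, 7.69, 7.71 and 7.16 at night and 6.75, 6.98 and 7.06 at midday. The night array at CT 44 was well below the other 3 and close to the midday range. The difference was -0.67 ± 0.11 (limma, adjusted p = 0.0299), -0.84 in the first cycle and -0.51 in the second, and the call ended in 8 of 10 fits with 1 array left out. The near-identical Hspa1b had no probe set of its own here, so its signal and that of Hspa1a cannot be told apart.

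Chordc1, a co-chaperone of HSP90, read 9.33, 9.35, 9.23 and 9.06 at night and 8.54, 8.76 and 8.92 at midday. Its difference was -0.49 ± 0.08 (limma, adjusted p = 0.0169), nearly equal in both cycles, and the call ended without CT 18, CT 20 or CT 42. The values of the other members were smaller or more variable, and those named in this paragraph and absent from the naming rule were chosen after their values were seen. Dnajb1, a J-domain partner of HSP70, gave -0.36 ± 0.06 (limma, adjusted p = 0.0523) and the HSP90 activator Ahsa1 -0.31 ± 0.07 (0.173). The HSP110 chaperone Hsph1 gave -0.30 ± 0.09 (limma, adjusted p = 0.380) and the adaptor Stip1 -0.27 ± 0.08 (0.383), both with overlapping arrays. The small heat shock protein Hspb1 gave -0.64 ± 0.17 (0.307) with overlapping arrays, and the constitutive chaperone Hspa8 -0.14 ± 0.06 (0.509). Dnajb5, at 0.15, was the single member with a positive difference. Among 22 endoplasmic reticulum chaperone and stress genes 0 passed, 9 were lower and 0 higher at an unadjusted p under 0.05, where 4.17% of all genes were lower and 4.42% higher, and the median was -0.09. The secreted factors Manf (-0.36 ± 0.08, limma adjusted p = 0.122) and Creld2 (-0.29 ± 0.07, adjusted p = 0.236) had the smallest p of that list. The cold-inducible genes Cirbp and Rbm3 had positive differences of 0.26 ± 0.07 and 0.34 ± 0.11 and did not pass (limma, adjusted p = 0.310 and 0.428).

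**Figure D3:**
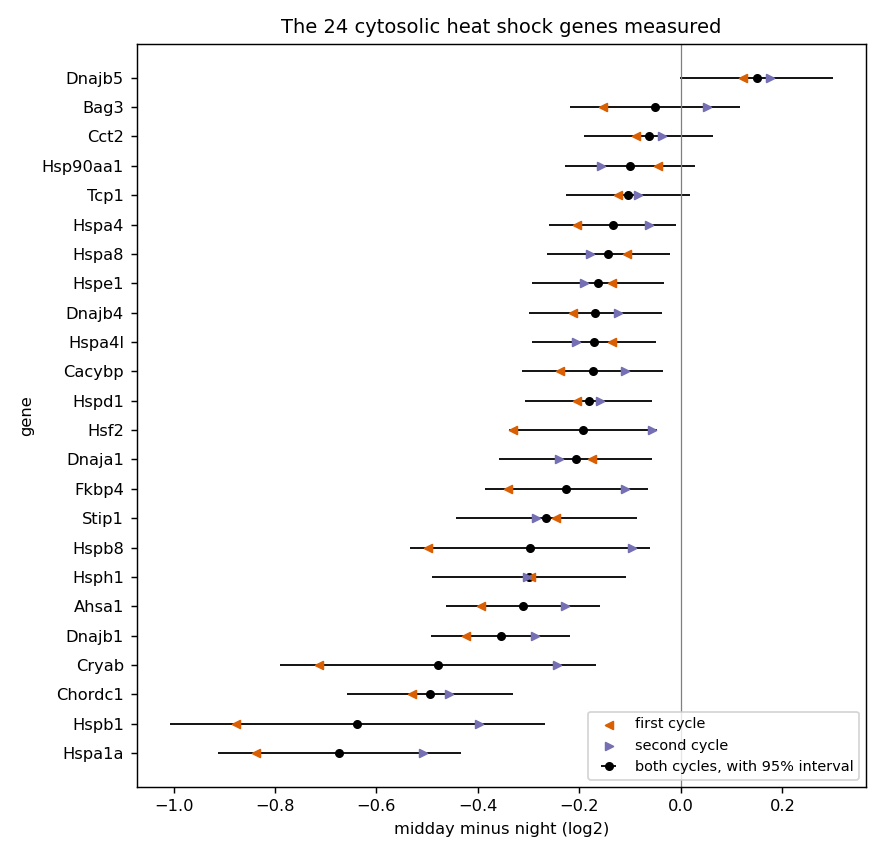
Midday minus night difference (horizontal axis, log2) of the 24 cytosolic heat shock genes measured (vertical axis), with the estimate over both cycles and its 95% interval in black and each cycle as a triangle. The estimates run from -0.67 for Hspa1a to 0.15 for Dnajb5, and 23 of 24 are below 0.

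The other genes lower at midday belonged to none of the gene lists. Cdh19, a cadherin of cell adhesion, read 6.75, 6.997, 6.61 and 6.52 at night and 5.91, 6.17 and 6.44 (lowest, median, highest) at midday, a difference of -0.57 ± 0.08 (limma, adjusted p = 0.00939) that was -0.59 and -0.56 in the 2 cycles. The highest midday array lay just below the lowest night array. The Cdh19 call ended without a cycle term, with the pituitary marker mean as a covariate and with CT 40 and CT 64 added to night. Without CT 18 and CT 20 its difference was -0.42 (limma, adjusted p = 0.807). Prr15 fell by 0.59 (SE 0.10, limma, adjusted p = 0.0299) from 6.62 ± 0.25 (SD, n = 4) at night to 6.03 ± 0.16 (n = 6). Akr1e1, an aldo-keto reductase, fell by 0.48 (adjusted p = 0.02) and was highest of all 24 arrays at CT 20. Prkg2, a cyclic GMP-dependent kinase, fell by 0.52 (adjusted p = 0.0494), Iqub, a protein with IQ and ubiquitin domains, by 0.44 (adjusted p = 0.0169) and Trmt9b, of a tRNA methyltransferase family, by 0.43 (adjusted p = 0.0429). Prkg2 and Trmt9b each lost the call in 9 of 10 fits with 1 array left out, Prr15 in 7, Akr1e1 in 6 and Iqub in 5. Iltifb, a close copy of the interleukin 22 gene, gave -0.996 ± 0.14 (limma, adjusted p = 0.0113), but lay below the 30th percentile in both groups (4.86 at night, 3.86 at midday). The midday mean was under the array background of 4.09 to 4.19, so no fold is given, and its probes and those of the copy may not be told apart.

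**Figure D4:**
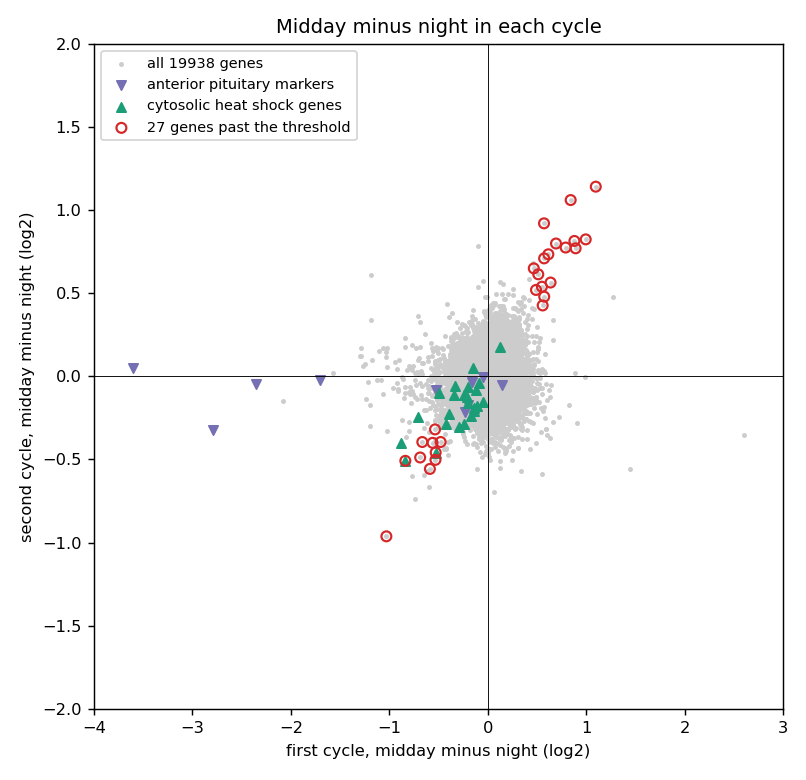
Midday minus night difference in the second cycle (vertical axis, log2) against the first cycle (horizontal axis, log2, on a wider scale) for all 19938 genes, with the 27 genes past the threshold as red circles, heat shock genes as green and anterior pituitary markers as purple triangles. The red circles lie in the quadrants of equal sign, and Gh, at -3.60 and 0.05, is the pituitary marker farthest to the left.

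The 2 cycles were compared gene by gene. The difference of the genes that passed was 0.43 or more in each cycle among those higher and -0.32 or further below 0 among those lower. All 10 genes lower at midday had the larger difference in the first cycle, as had 8 of the 17 genes higher. The share over all genes was not counted. The night arrays of that cycle, CT 18 and CT 20, had the high pituitary marker means of 6.39 and 7.22, whose part in this was not tested. In the test of the difference between cycles 0 genes passed (limma, 0% of all genes), with 1252 (6.28%) at an unadjusted p under 0.05. The smallest adjusted p, 0.0845, was shared by an immunoglobulin kappa variable segment (second minus first cycle -1.14) and Prl7c1 (-0.998). Of these, Prl7c1 lay below the 30th percentile of gene means. Next came Gpc2 (-0.78, adjusted p = 0.377). Without the night array at CT 18 3 genes passed, the pituitary hormone genes Cga, Gh and Prl, and without CT 20 4 passed, Gh, Npy, Pomc and Snord49b.

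Within the windows the genes did not share one time. Among the 17 genes higher at midday the mean was highest at circadian time 4 for 4 genes, at 6 for 2 and at 8 for 11. Of the 10 lower, 4 were lowest at circadian time 4, 5 at 6 and 1 at 8. For 15 of the 17 the highest of all 24 arrays was a midday array, whereas the lowest was a night array for 3. For 6 of the 10 genes lower at midday the highest array was one of the 4 night arrays, and for 6 the lowest was a midday array. The genes were picked on these same midday and night arrays, so the counts are a description. The share over all genes was not counted.

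Markers of neighbouring tissue moved with the comparison in the first cycle. Gh, growth hormone of the anterior pituitary, read 9.53, 11.96, 5.17 and 5.20 at night and 5.02, 6.24 and 7.33 (lowest, median, highest) at midday. Its difference was -3.60 in the first cycle and 0.05 in the second. Prl, prolactin, gave -2.79 and -0.32, and Pomc, the precursor of corticotropin, -1.70 and -0.02. None of the 10 pituitary markers passed in the fit of both cycles, and 5 lay above the 30th percentile. Pomc passed as lower in the first cycle alone (limma). At an unadjusted p under 0.05, 6 were lower, where 4.17% of all genes were lower. In the second cycle the mean of the list was 5.38 to 5.43 at night and 5.23 to 5.36 at midday. In that cycle alone 0 genes passed (limma), with 1059 of 19938 at an unadjusted p under 0.05. The first cycle alone had 1895 at that threshold, and the fit of both cycles had 1714 (8.6%). With the pituitary marker mean as a covariate 4 genes passed as higher, all of the 17, and 1 as lower, which was not one of the 10. With the night arrays at CT 18 and CT 20 left out, a setting chosen after seeing the data that leaves 2 night arrays, 4 and 1 passed. The 1 gene lower in that setting was Rasd1, so none of the 10 kept its call there. Rgs16, Rasl11b, Dbp and Creb3l1 passed in both settings, with differences of 1.38, 1.03, 0.94 and 0.77 under the covariate. Nfil3 gave -0.40 and Hspa1a -0.61 under the covariate, neither past the threshold.

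**Figure D5:**
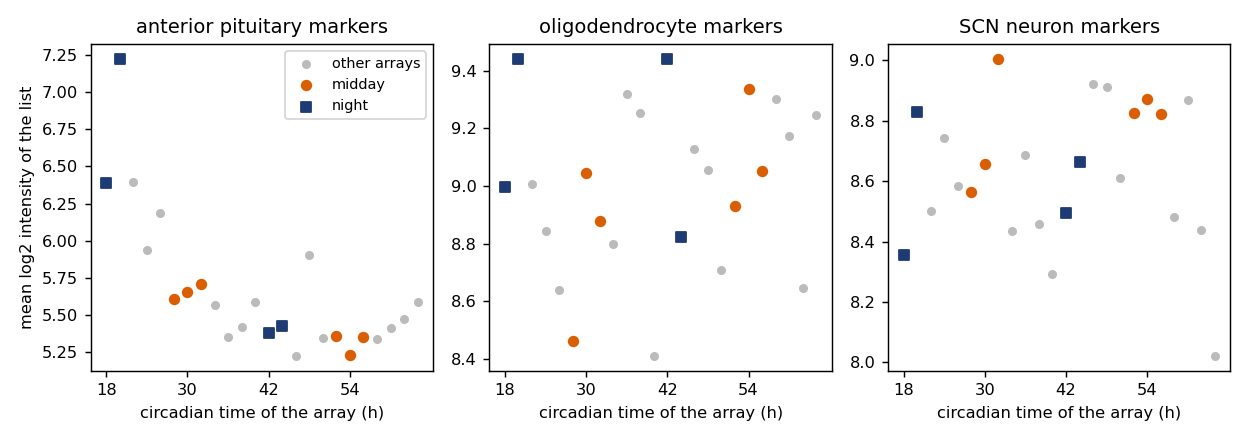
Mean log2 intensity of marker lists (vertical axes) for the anterior pituitary, optic chiasm oligodendrocytes and SCN neurons on each of the 24 arrays against circadian time in hours (horizontal axes), with midday as orange circles and night as blue squares. The pituitary mean is 6.39 and 7.22 at CT 18 and CT 20 and at most 5.71 on any midday array, while its other night means, 5.38 and 5.43, lie within the midday range. The oligodendrocyte and SCN neuron means overlap between the groups, and the SCN neuron list holds 3 of the genes higher at midday (Rgs16, Prok2 and Rora).

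The oligodendrocyte marker mean ran from 8.46 to 9.34 at midday and from 8.82 to 9.44 at night, with a median member difference of -0.26 (-0.45 in the first cycle, -0.11 in the second) and 0 of 13 members past the threshold. With that mean as a covariate, a setting chosen after seeing the data, 16 genes passed as higher and 4 as lower, and Hspa1a and Chordc1 were not among them. Hspa1a gave -0.58 with the covariate and -0.67 without it (limma, adjusted p = 0.0884 with it), and Chordc1 -0.46 and -0.49 (adjusted p = 0.0720 with it). The vessel and meninges list ran from 6.50 to 7.20 at midday and from 6.86 to 7.23 at night. None of its 20 members passed in the fit of both cycles, and Lum passed as lower in the first cycle alone (limma). At an unadjusted p under 0.05, 5 were lower and 1 higher, where 4.17% and 4.42% of all genes were. Ttr, transthyretin of the choroid plexus, had the highest positive difference of all genes and did not pass (1.12 ± 0.59, limma, adjusted p = 0.620). It read 7.502, 7.37, 8.16 and 6.41 at night and 6.89, 7.65 and 11.18 (lowest, median, highest) at midday, with 11.18 at CT 28 and 10.62 at CT 32, and differed by 2.60 in the first cycle and -0.35 in the second. The ependyma and choroid plexus list ran from 7.10 to 7.61 at midday and from 7.11 to 7.20 at night, and 0 of its 11 members passed. With array background as a covariate 14 genes passed as higher and 1 as lower. The part of these tissues in the remaining results was not tested.

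The lists for excitability, secretion, metabolism and protein turnover held 0 genes that passed, at sizes for which the 0.135% of all genes past the threshold comes to less than 1 gene. Their counts at an unadjusted p under 0.05 stand beside 4.42% higher and 4.17% lower over all genes. Of 44 potassium channel genes 3 were higher and 2 lower at an unadjusted p under 0.05, with Kcnh5 at -0.30 ± 0.07 (limma, adjusted p = 0.173) and Kcnc2 at 0.31 ± 0.08 (adjusted p = 0.292). Of 25 sodium, calcium and pacemaker channel genes 1 was higher and 1 lower, the sodium channel Scn9a at -0.16 ± 0.06 (adjusted p = 0.443). Among 33 genes of secretory granules and vesicle release 27 had a positive difference (10380 of 19938 over all genes) with a median of 0.06, and 4 were higher at an unadjusted p under 0.05. Vgf, a granule peptide precursor, differed by 0.50 ± 0.09 without overlap in either cycle (limma, adjusted p = 0.0695). At the unadjusted threshold 1 of 19 GABA genes was lower, 1 of 20 glutamate receptor genes was higher and 1 of 31 proteasome genes was higher, near the shares over all genes. For 37 respiratory chain, 20 glycolysis and 32 translation genes the count at an unadjusted p under 0.05 was 0. Cholesterol synthesis genes had 2 higher and 3 lower of 21, with the isomerase Ebp at -0.35 ± 0.07 (adjusted p = 0.101). Interferon-induced genes had 5 lower and 0 higher of 17, with Ifit3b at -0.69 ± 0.19 (adjusted p = 0.312), and glucocorticoid-induced genes 2 higher and 3 lower of 16, with the metallothionein Mt2 at 0.31 ± 0.07 (adjusted p = 0.173).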

How the data were processed

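Per the submitters' processing notes, the authors deposited log2 intensities made with RMA 1.3.1.187 in Affymetrix Expression Console; background and summary settings and the build are not given in the sources used here. Per the labels' protocols, RNA was amplified with NuGen Pico WTA V2 and labelled with the Encore Biotin module. No renormalisation was applied.

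Of 35556 probe sets, 21789 had 1 gene symbol in the platform annotation, 1621 had several and 12146 were not listed; the probe set of highest mean was kept for each of 19938 genes, with no filter. limma 3.58.1 in R 4.3.3 fitted midday minus night with the cycle as a covariate over the 10 arrays, with Benjamini-Hochberg adjustment over all genes. Errors are SD over arrays or the SE of limma. The number of arrays limits the precision.

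Members and the 34 gene lists were chosen with earlier results of these data known, so lists are described by counts and medians, and 9 of them mark cell types. Named genes are every core clock gene measured; the 12 genes of largest change each way among those past the threshold, above the 30th percentile and without overlap in either cycle; up to 4 genes past the threshold of each other list, or the 2 of smallest p; and the 3 of smallest p for the cycles. Plk2, Hmgb3, Iltifb, Gh, Ahsa1, Hspb1, Hsph1, Stip1, Hspa8, Dnajb1, Dnajb5, Vipr2, Avpr1a, Avp, Pde2a, Pde10a, Rasd1, Cga, Npy, Snord49b and the genes under Other observations were named after their values were seen.

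Both fits were tested on simulated data over 19938 genes, with 67, 67 and 66 genes changed by 0.3, 0.6 and 1.2 (log2). The midday minus night fit recovered 35.8%, 94.0% and 100% of these, and 4.97% of its calls were false. The fit of the difference between cycles recovered 0%, 23.9% and 95.5% of those sizes, and 7.06% of its calls were false. These shares describe the simulated data, where more genes were changed than the 27 that passed on the arrays. Whether they hold for these arrays, with tissue markers uneven between them, was not tested.

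Alternatives were a filter on dim genes, no cycle term, quantile and median normalisation, covariates, other sets of arrays, each cycle alone, every probe set, a trended prior, array weights, a stricter threshold, and leaving out each array. Promoters were those of RefSeq, build GRCm38.p6.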

Additional observations from a re-analysis of the deposited data

Results flagged for a closer look

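In each group of arrays the highest or lowest value was checked for a wide gap to the others (Dixon's criterion). Chance marks about 1 in 20 groups, and 9 values stood out over 224 groups checked. At CT 18 these were Nr1d2, which read 8.88 against 8.68 to 8.70 on the other night arrays, and Pde10a, at 7.52 against 7.81 to 7.82. Dbp read 7.54 at CT 20 against 7.26 to 7.27 on the other night arrays. The oligodendrocyte marker Ermn read 9.27 at CT 44 against 10.1 to 10.3 on the other night arrays. Among midday arrays Chrna3 read 7.52 at CT 32 against 6.93 to 7.13. Fabp7 read 11.34 at CT 30 against 10.79 to 10.97, and Pde10a 7.87 at CT 30 against 8.13 to 8.19. Stip1 read 10.17 at CT 28 against 9.78 to 9.83, and Pomc 5.23 at CT 52 against 5.62 to 5.82. Without CT 32 and CT 30 respectively, Chrna3 and Fabp7 still passed the threshold (limma).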

How the results depend on the processing

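Against 17 genes higher and 10 lower, the count was 8 and 1 at a threshold of 0.01 and 4 and 1 with the pituitary covariate. It was 4 and 6 in the first cycle alone, where 2 of the 4 and 2 of the 6 were among the 27. The others lower in that cycle included Pomc and Lum, markers of the pituitary and of vessel and meninges. The second cycle alone gave 0 and 0 (1059 at an unadjusted p under 0.05, fewer arrays), and a trended prior gave 27 and 18. With the array background covariate 1 gene was lower. Settings added after seeing the data gave 4 and 1 without CT 18 and CT 20 (the 1 not among the 10), and 4 lower with the oligodendrocyte covariate. A fit over all 35556 deposited probe sets, also added then, gave 3 and 0 among the probe sets of the 19938 genes. The 3 were Rasl11b, Prok2 and Creb3l1, with 1391 at an unadjusted p under 0.05. In that fit 6 probe sets passed in all, with a second one of Ciart and 2 lower ones of several or no symbols. The cause of these changes was not tested. Leaving out 1 array gave 8 to 24 genes higher, 2 to 27 lower and 0 to 4 that differed between cycles. With CT 40 and CT 64 in the night group, array background turned to -0.059 (exact permutation p = 0.496), Clock to 0.057, Msmo1 to 0.019 and Eif4a1 to 0.064. With 1 array left out the background difference was 0.016 to 0.061 and the pituitary difference -0.86 to -0.25; both reached an exact permutation p of 0.0476 in some of these. Among markers that did not pass, Gh turned to 0.25 with the pituitary covariate, 0.052 in the second cycle and 1.01 without CT 18 and CT 20. Under those settings Prl turned to 0.17 with the covariate and 0.059 without the arrays, Pomc to 0.080 without the arrays, and Ttr, at 1.12, to -0.076 with the covariate and -0.35 in the second cycle. S100a8 turned to 0.048, 0.071 and 0.065 with the background covariate, the pituitary covariate and without the arrays. No paired analysis was possible because the labels carry no replicate numbers; the cycle was a term of the fit, and without it 17 and 9 genes passed.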

Other observations

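Genes that just missed the threshold included several with clear separation of the groups, named here after their values were seen. There were 14 genes with an adjusted p between 0.05 and 0.1 (limma). Tuba8, an alpha tubulin, read 7.44 ± 0.13 (SD, n = 4) at night and 7.05 ± 0.11 (n = 6) at midday (difference -0.38, adjusted p = 0.0522). Dsel, an enzyme of the dermatan sulfate pathway, differed by -0.50 (adjusted p = 0.0573), and the secreted protein gene Gkn3 by -0.40 (adjusted p = 0.0681). Tarsl2, of the threonyl-tRNA synthetase family, differed by -0.30 (adjusted p = 0.0999), and Fndc9, with a fibronectin domain, by 0.30 (adjusted p = 0.0919). The probe set of the microRNA gene Mir487b differed by 0.39 (adjusted p = 0.0999). The potassium channel Kcnj2 (-0.38, adjusted p = 0.0683) and the receptor Gpr63 (0.33, adjusted p = 0.0806) lay below the 30th percentile.

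The second Ciart probe set had a mean over all 24 arrays of 6.90 against 6.95 for the one used, which had an adjusted p of 0.0645 in the fit with every probe set of single-symbol genes (limma). Prkg2 has a second probe set that gave -0.55 ± 0.13 (adjusted p = 0.201). Of 13767 probe sets with several or no symbols, 2 passed in the fit over all deposited probe sets, both lower at midday, at -1.07 and -1.17.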
